A study of Mus musculus with 6 samples.

Results

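The genes described here are the matrix metalloproteinases (MMP), the ADAM proteases, the ADAMTS proteases and the tissue inhibitors of metalloproteinases (TIMP) of mouse tumours. They were taken as the rows of the deposited count table whose symbols are Mmp, Adam or Adamts with a number, or Timp1 to Timp4, and whose counts sum to at least 15 over the 6 libraries. Of 59 symbols that matched, 53 met that minimum, out of 28368 rows in the table. The 53 were 17 MMP, 17 ADAM, 15 ADAMTS and 4 TIMP genes. Just inside the minimum lay Mmp24 with 23 summed counts and Adamts8 with 24, and just outside it lay Adam3 with 12 and Mmp21 with 8.

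Bulk polyadenylated RNA was sequenced from 6 mouse tumour samples. The 3 treated tumours came from mice given the MS-DF-MS therapy for 12 h, an implanted depot that, by the series' title, releases a STING agonist and an apoptosis inducer, and the 3 control tumours came from untreated mice. The labels name neither the tumour line nor the drugs, and no sample analysed here is labelled as carrying an empty depot, so the implant and its contents cannot be told apart. They do not say whether the libraries of a group come from separate animals, and p-values therefore cover only how far these samples differ from one another, a spread that may be technical.

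MMPs are zinc-dependent proteases, secreted or anchored in the membrane, that cut collagens, proteoglycans and other matrix proteins. ADAMs are membrane proteases that release the outer parts of cytokines, growth factors, adhesion proteins and receptors, and ADAMTS proteases are secreted enzymes with thrombospondin repeats that cut proteoglycans, procollagens and other matrix proteins. TIMPs bind the active site of these enzymes and block it. In tumours these genes are expressed by malignant cells, fibroblasts, endothelial cells, macrophages and neutrophils, and in bulk tissue fewer cells of a type and less RNA per cell cannot be told apart.

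Library totals were 64505780 to 66634551 counts in treated and 57017043 to 64172654 counts in control tumours. Summed melanocyte markers, which include Tyr and Pmel, reached 22602 to 24595 CPM (counts scaled to library size by TMM) in treated and 22011 to 24294 CPM in control tumours. Treated 1 stood apart by keratinocyte markers, which summed to 94.7 CPM there, against 1.40 and 2.12 CPM in treated 2 and 3 and 1.45 to 1.81 CPM in control tumours. Treated 1 also held the highest sums of neutrophil, macrophage, fibroblast, endothelial, pericyte and smooth muscle, skeletal muscle and adipocyte markers. Treated 3 lay apart on the first principal component, at 72.9 against -37.9 to 13.3 for the other libraries, and held the lowest sums of macrophage, T cell and skeletal muscle markers.

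Of the 53 genes, 6 lie in a run of MMP genes on chromosome 9, from 7272514 to 7581415 in the table's coordinates, and the bases before their starts are printed because 4 of these MMPs share a motif there. AP-1 motifs (TGAGTCA, or TGACTCA on the other strand) are bound by Fos and Jun proteins and are a textbook feature of MMP promoters. The sequences are 100 bases ending at the base before a RefSeq start on GRCm38.p6, written 5′ to 3′ with the motif in capitals. RefSeq starts can differ from the gene starts in the count data. For Mmp12 the start with the motif is shown, which lies inside the gene's span of 7344381 to 7369499. The bases before its other start are not printed.
Mmp13 promoter, chr9:7272414-7272513, + strand: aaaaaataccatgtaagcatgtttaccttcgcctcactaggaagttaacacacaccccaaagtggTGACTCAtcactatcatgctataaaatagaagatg
Mmp12 promoter, chr9:7347274-7347373, + strand: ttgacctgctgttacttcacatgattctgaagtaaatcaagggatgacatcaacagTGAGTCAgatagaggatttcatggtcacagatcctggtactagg
Mmp3 promoter, chr9:7445722-7445821, + strand: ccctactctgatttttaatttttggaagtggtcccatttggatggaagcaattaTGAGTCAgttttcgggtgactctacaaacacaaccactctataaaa
Mmp10 promoter, chr9:7502242-7502341, + strand: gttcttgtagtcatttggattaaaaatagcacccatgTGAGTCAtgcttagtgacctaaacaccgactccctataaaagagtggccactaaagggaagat
Mmp8 promoter, chr9:7558329-7558428, + strand: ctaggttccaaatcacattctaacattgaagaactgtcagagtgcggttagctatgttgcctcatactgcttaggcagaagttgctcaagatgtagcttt
Mmp27 promoter, chr9:7571296-7571395, + strand: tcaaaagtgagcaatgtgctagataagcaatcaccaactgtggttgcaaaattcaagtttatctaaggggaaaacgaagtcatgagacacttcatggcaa
The AP-1 letters stood 35 to 29 bases before the start of Mmp13, 44 to 38 before one start of Mmp12, 46 to 40 before Mmp3 and 63 to 57 before Mmp10, and were absent from the 100 bases shown of Mmp8 and Mmp27 and from those before the other start of Mmp12. RefSeq promoters matched 35 of the 53 genes, with 39 promoters. In the 250 bases before the start, searched on both strands, the AP-1 letters occurred in 5 of these 39 promoters (12.8%), the fifth being Adam19, against 1466 of 32851 promoters of all genes (4.46%). The run on chromosome 9 supplied 7 of the 39 promoters and 4 of the 5 with the letters. Among the 35 genes searched, Adam19 was the only one outside this run that had them, so the share rests mostly on these neighbouring genes. Genes without a matched promoter, among them Adamts4, Adamts7, Adam9, Adam12, Mmp2 and Mmp9, were not searched. The interferon-stimulated element GAAANNGAAA occurred in 1 of the 39 (2.60%), that of Mmp13, against 978 of all promoters (2.98%). A match of letters describes the sequence and does not show a bound site.

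Levels can be compared between genes only per length, and deposited FPKM (fragments scaled by gene length and library size) were used for this. Adam9, a broadly expressed membrane protease, had the highest mean over the 6 libraries, at 39.0 FPKM with a range of 33.4 to 44.1. Timp1 followed with a mean of 33.4 FPKM, Timp2 with 31.1 FPKM and Adam10 with 25.6 FPKM. These 4 genes made up 51.7% of the FPKM summed over all 53 genes. The ranges of Adam9, Timp1 and Timp2 overlapped one another, but Adam9 was above Timp2 in each library. Timp1 was above both in treated 1 and 2 and below both in the other libraries, so its place in the order varied. Adamts1, Mmp14, Adam17 and Adam12 came next, with means of 22.6, 20.6, 13.5 and 13.0 FPKM. Timp3, Adam15 and Adamts4 had means of 8.05, 7.20 and 6.43 FPKM, and the first 11 genes made up 88.4% of the sum. Below them, no gene had a mean above 3.13 FPKM, the mean of Mmp3. Among MMPs, the membrane-anchored Mmp14 stood above every secreted member in each library.

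**Figure D1:**
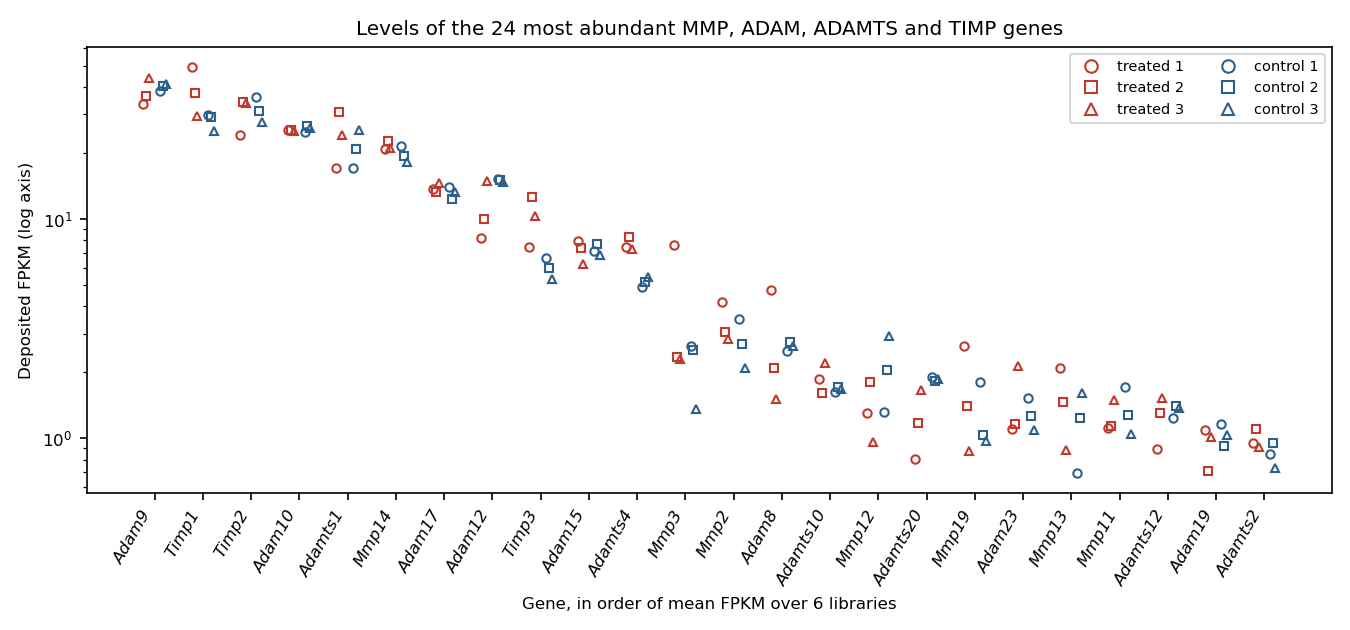
Deposited FPKM (log axis) of the 24 genes with the highest means, in order of the mean over 6 libraries, with red symbols for the 3 treated and blue symbols for the 3 control tumours. Adam9, Timp1, Timp2 and Adam10 lead with means of 39.0, 33.4, 31.1 and 25.6 FPKM, and treated 1 stands above the other 5 libraries for Mmp3 and Adam8.

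The comparison of treated with untreated tumours was made for the 47 genes that passed the filter on low counts, among 18049 in the fit, by the quasi-likelihood test of edgeR with Benjamini-Hochberg adjustment over all genes tested. Of the 47, 1 rose at an adjusted p under 0.05, Adamts4 (2.13%, against 1.36% of all genes), and 0 fell (against 0.249% of all genes). Without adjustment, 7 of 47 genes had p under 0.05 (14.9%), 5 higher and 2 lower in treated tumours, against 16.0% of all genes. DESeq2, which tested 40 of the genes, called 3 higher (7.50%, against 4.47% of all genes it tested) and 0 lower (against 1.89%). All 3 treated libraries lay above all 3 control libraries for 3 genes, Adamts4, Adamts7 and Timp3 (6.38%, against 12.0% of all genes). All 3 lay below for 1 gene, Adamts20 (2.13%, against 11.2% of all genes). The share called higher in edgeR rests on 1 gene. Without treated 1, 2 genes rose, Adamts4 and Timp3. Without treated 3, Adamts4 rose and Adam12 fell, and without treated 2 or any 1 control library the count of calls was 0. The log2 fold change (treated over control) was above 0 for 31 of the 47 genes, with a median of 0.20, where the median of all genes tested was -0.003. By family, the median was 0.32 for 16 MMPs, 0.004 for 14 ADAMs, 0.21 for 14 ADAMTS genes and 0.47 for 3 TIMPs. Without treated 1, the median was 0.10 for the 47 genes, 0.06 for MMPs, -0.01 for ADAMs, 0.24 for ADAMTS genes and 0.27 for TIMPs. Without treated 3, it was 0.17 for the 47 genes, 0.52 for MMPs, -0.09 for ADAMs, 0.23 for ADAMTS genes and 0.64 for TIMPs. For 22 of the 47 genes, the 95% interval of the fold change lay within a 2-fold change in either direction, so larger changes of those genes were outside their intervals.

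**Figure D2:**
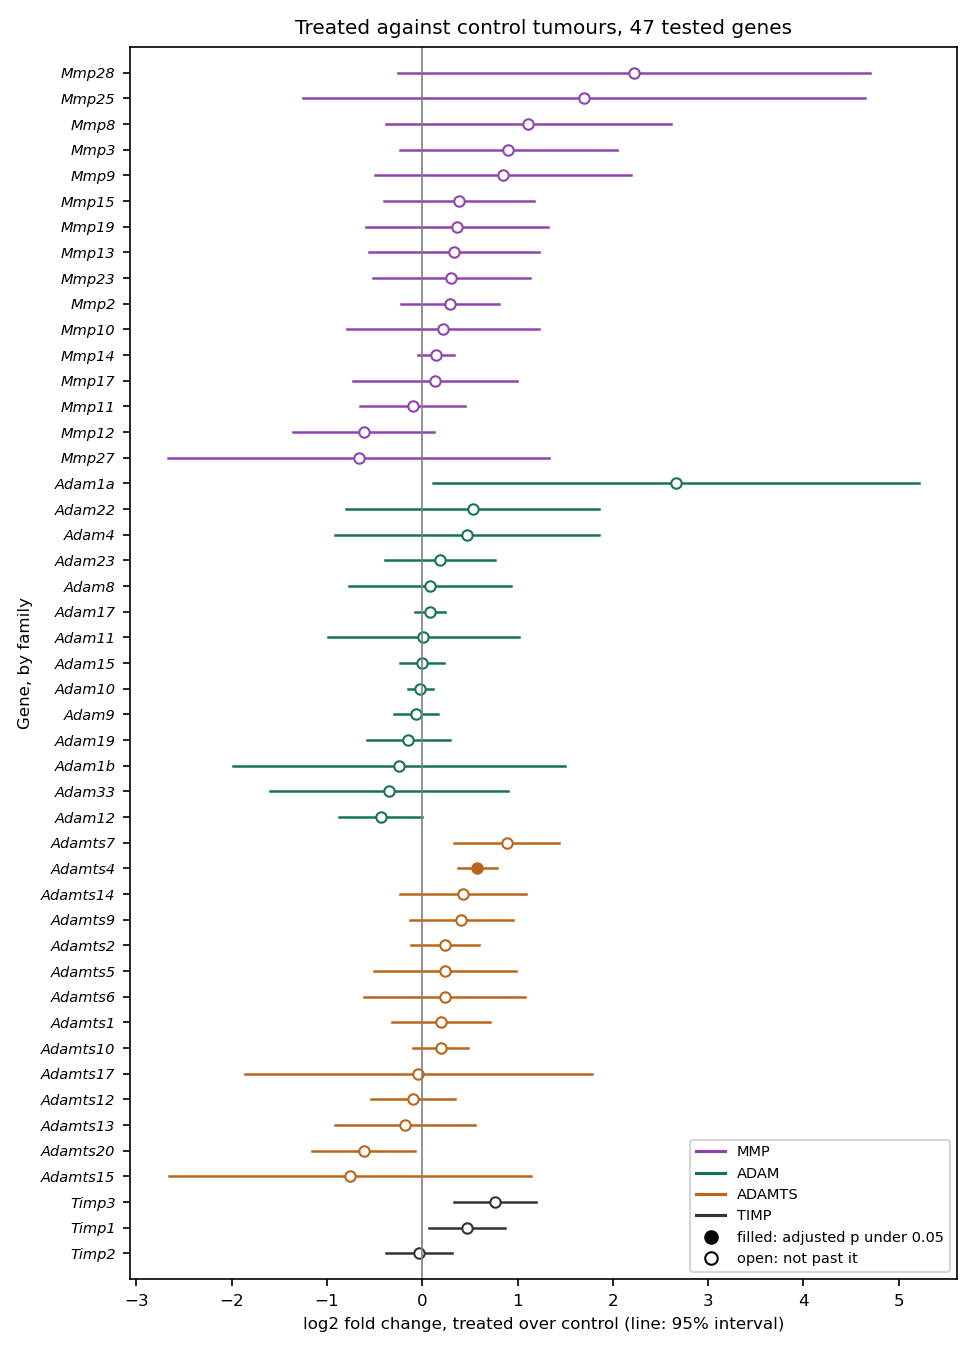
Log2 fold change of treated over control tumours (x axis) for the 47 tested genes by family, with 95% intervals as lines and a filled point for an adjusted p under 0.05. Adamts4 at 0.58 carries the single filled point, and the widest intervals among MMPs belong to Mmp25 and Mmp28, which have few counts.

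Adamts4, a secreted protease that cuts the proteoglycans aggrecan and versican, lies on chromosome 1 from 171250421 to 171260637. It had 40.2, 46.1 and 39.5 CPM in treated tumours, against 26.6, 28.1 and 29.5 CPM in control tumours. Every treated library was above every control library, and both groups were tight, with means of 41.9 ± 3.61 and 28.1 ± 1.46 CPM (SD, n = 3 each). The gene rose 1.49-fold (95% interval 1.30 to 1.72; log2 0.58 ± 0.09 SE; edgeR adjusted p = 0.0200). Without treated 1 the adjusted p was 0.0355 and without treated 3 it was 0.0306, while without treated 2 it was 0.0698 and without control 1, 2 or 3 it was 0.0826, 0.137 or 0.0689. A fit with the library number as a replicate block gave a log2 fold change of 0.58 and an adjusted p of 0.0787.

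The other proteoglycan-cleaving ADAMTS genes did not pass the test. Adamts1, the most abundant ADAMTS gene, had 101.3, 188.2 and 144.0 CPM in treated tumours and 101.7, 124.8 and 152.1 CPM in control tumours. The groups overlapped, with a log2 fold change of 0.20 ± 0.22 (adjusted p = 0.738, edgeR), which was 0.40 without treated 1. Adamts20, a protease that in mouse is known from the white spotting of belted mutants and from versican cleavage, lies on chromosome 15 from 94270163 to 94465418. It had 8.15, 12.2 and 16.9 CPM in treated tumours, against 19.4, 18.6 and 19.0 CPM in control tumours. All treated libraries were below the control libraries, which lay close together, and treated 1 was the lowest. The log2 fold change was -0.61 ± 0.23, with an unadjusted p of 0.0301 and an adjusted p of 0.251 (edgeR), and it was -0.38 without treated 1 (adjusted p = 0.274) and -0.90 without treated 3 (adjusted p = 0.0643). Of the 6 tested genes of this class, 1 rose and 0 fell in edgeR, against 1.36% and 0.249% of all genes. Their median log2 fold change was 0.22. The other members, Adamts5, Adamts9 and Adamts15, had log2 fold changes of 0.24, 0.41 and -0.76 with overlapping groups.

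Adamts7, a protease known for cutting cartilage oligomeric matrix protein, lies on chromosome 9 from 90163069 to 90208071. It had 6.30, 5.86 and 4.03 CPM in treated tumours, against 2.38, 3.04 and 3.33 CPM in control tumours. The groups did not overlap, and treated 3 was nearest to the control libraries. The fold change was 1.85 (95% interval 1.26 to 2.71; log2 0.89 ± 0.24), with an unadjusted p of 0.00590 and an edgeR adjusted p of 0.130, and DESeq2 gave an adjusted p of 0.0235. The procollagen N-proteinases remove the amino-terminal propeptides of fibrillar collagens. Adamts2 had 9.97, 11.9 and 9.64 CPM in treated tumours and 8.94, 10.02 and 7.72 CPM in control tumours. Adamts14 had 6.90, 7.89 and 3.55 CPM in treated tumours and 4.31, 4.44 and 4.89 CPM in control tumours. Both overlapped between the groups, with log2 fold changes of 0.24 ± 0.15 and 0.43 ± 0.29 and edgeR adjusted p of 0.504 and 0.527, and without treated 3 that of Adamts14 was 0.70. Adamts10, which acts on fibrillin microfibrils, had a log2 fold change of 0.19 (adjusted p = 0.511), or 0.076 without treated 3. Adamts12 had -0.10 (adjusted p = 0.855), or 0.096 without treated 1 and -0.27 without treated 3. Adamts6, Adamts13 (the protease of von Willebrand factor) and Adamts17 ranged from -0.18 to 0.23 in log2 fold change.

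None of the 3 tested TIMPs passed the adjusted threshold in edgeR, where 1.36% of all genes rose and 0.249% fell. In the same fit 2 had an unadjusted p under 0.05, against 16.0% of all genes. DESeq2 called 1 higher, Timp3, against 4.47% of all genes it tested. With 3 genes, these shares rest on 1 or 2 of them. Timp3, which is held in the matrix and blocks Adam17 and ADAMTS aggrecanases as well as MMPs, lies on chromosome 10 from 86300372 to 86349506. It had 68.0, 118.1 and 94.5 CPM in treated tumours, against 61.2, 55.0 and 49.0 CPM in control tumours. The groups did not overlap, but treated 1 lay close to control 1, and the treated mean of 93.5 ± 25.1 CPM was spread more than the control mean of 55.1 ± 6.09 CPM (SD, n = 3 each). The fold change was 1.70 (95% interval 1.26 to 2.28; log2 0.76 ± 0.19), with an unadjusted p of 0.0034 and an edgeR adjusted p of 0.102. Without treated 1 the adjusted p was 0.0171, and DESeq2 on all libraries gave 5.84e-05. Timp3 lies within Syn3 on the opposite strand, and 21.3% of its exon bases are shared; Syn3 itself had 1.16 to 1.93 CPM in treated and 1.44 to 2.19 CPM in control tumours. Whether counting used strand is not given in the sources used here.

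Timp1, the secreted inhibitor that is induced in many inflamed tissues, lies on chromosome X from 20870166 to 20874735. It had 49.1, 38.4 and 29.5 CPM in treated tumours, against 29.9, 29.1 and 25.3 CPM in control tumours. Treated 1 and 2 were above all control libraries, and treated 3 lay among them. For Timp1 the log2 fold change was 0.47 ± 0.17, with an unadjusted p of 0.0260 and an edgeR adjusted p of 0.240, and it was 0.27 without treated 1. Timp2, which also takes part in the activation of pro-MMP2 by Mmp14, had 106.0, 153.3 and 147.3 CPM in treated tumours and 157.4, 136.8 and 121.7 CPM in control tumours. Its groups overlapped fully, with a log2 fold change of -0.03 ± 0.15 (adjusted p = 0.946, edgeR) and a 95% interval of 0.769 to 1.24 for the fold change. Timp4 had 18, 6 and 6 counts in treated and 8, 6 and 0 counts in control tumours, and was too low to be tested.

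Measured per length, Timp3 made up 9.19, 14.9 and 14.0% of the summed TIMP FPKM in treated tumours, against 9.21, 9.04 and 9.15% in control tumours. The control shares lay within a narrow range, treated 2 and 3 were above it and treated 1 was inside it. Summed TIMP FPKM were 80.9, 84.2 and 73.6 in treated tumours, against 72.4, 66.2 and 58.3 in control tumours, and summed MMP FPKM were 44.6, 36.9 and 32.6 in treated tumours, against 35.9, 31.97 and 30.4 in control tumours. Every treated TIMP sum was above the control sums, while the MMP sums overlapped. The ratio of MMP to TIMP sums was 0.551, 0.438 and 0.443 in treated tumours and 0.496, 0.483 and 0.521 in control tumours, with means of 0.477 ± 0.0637 and 0.500 ± 0.0193 (SD, n = 3 each). The treated ratios lay on both sides of the control ratios. No test was made of these sums and ratios; with 3 libraries against 3, the smallest two-sided exact permutation p is 0.10.

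**Figure D3:**
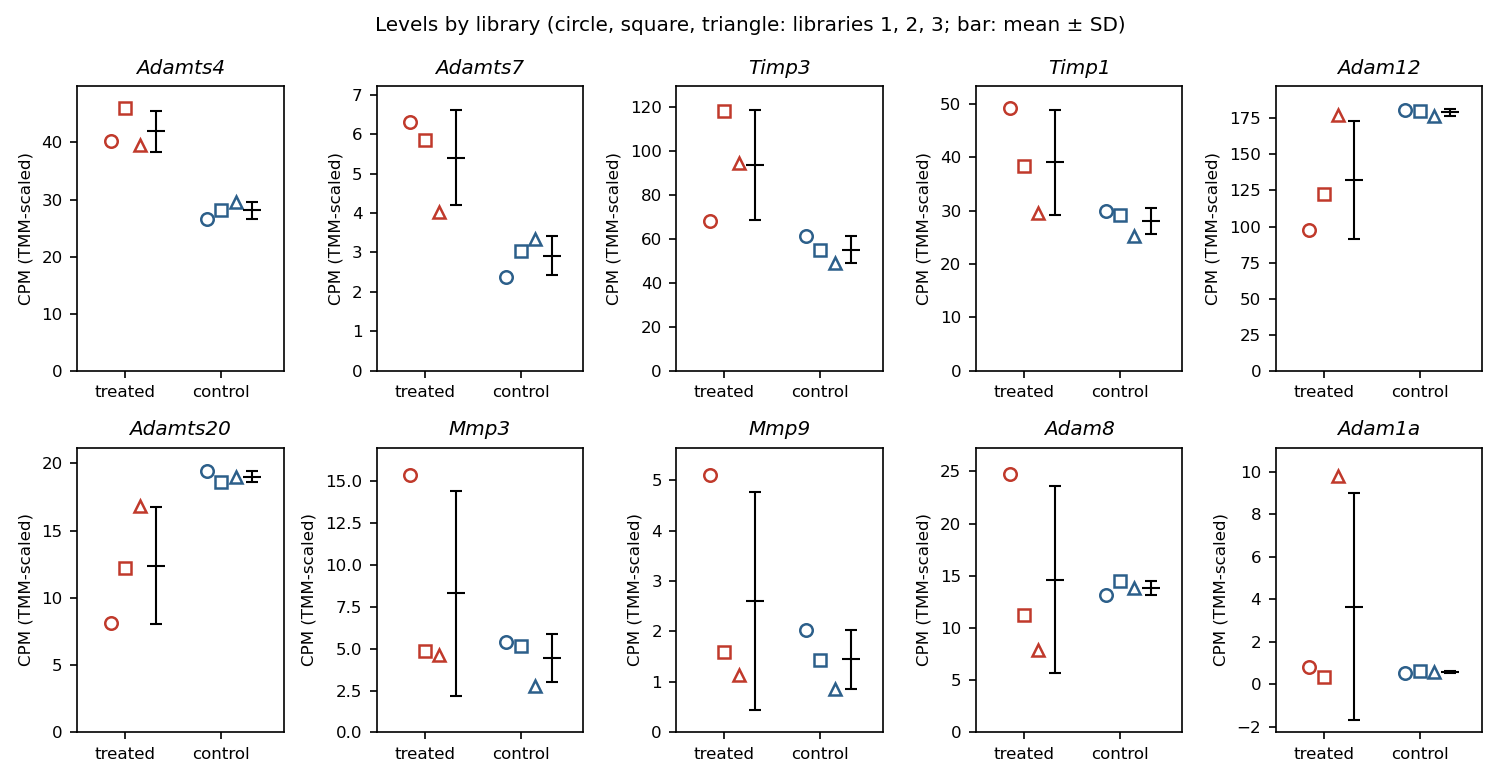
CPM by library for 10 genes, with treated tumours (red) left of control tumours (blue), circles, squares and triangles for libraries 1, 2 and 3, and bars for the mean ± SD; each y axis has its own range. The groups are apart for Adamts4, Adamts7, Timp3 and Adamts20, treated 1 alone is high for Mmp3, Mmp9 and Adam8, and treated 3 alone is high for Adam1a.

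None of the 16 MMPs tested in edgeR, or of those DESeq2 tested, passed. In edgeR, 1.36% of all genes rose and 0.249% fell. The count of MMPs at an unadjusted p under 0.05 (edgeR) was 0, against 16.0% of all genes. Among the collagenases, which cleave fibrillar collagen, Mmp8, the neutrophil enzyme, had 2.03, 1.46 and 0.391 CPM in treated tumours and 0.587, 0.280 and 0.930 CPM in control tumours. Mmp13 had 6.30, 4.54 and 2.67 CPM in treated tumours and 2.10, 3.76 and 4.84 CPM in control tumours. Both overlapped between the groups, with log2 fold changes of 1.11 ± 0.65 and 0.34 ± 0.39 and edgeR adjusted p of 0.454 and 0.739. Without treated 1 they were 0.63 for Mmp8 and 0.016 for Mmp13, and without treated 3 that of Mmp13 was 0.60. Among the gelatinases, which cut denatured collagen and basement membrane collagen, Mmp2 had 15.9, 11.9 and 10.7 CPM in treated tumours and 13.4, 10.2 and 7.96 CPM in control tumours. Mmp9, a gelatinase stored in neutrophil granules, had 5.09, 1.60 and 1.14 CPM in treated tumours and 2.04, 1.44 and 0.859 CPM in control tumours. Treated 1 was highest for both, and the other treated libraries lay within the control range. The log2 fold changes were 0.29 ± 0.22 for Mmp2 and 0.85 ± 0.58 for Mmp9 (edgeR adjusted p of 0.590 and 0.538), and without treated 1 they were 0.11 for Mmp2 and -0.08 for Mmp9.

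Mmp3, stromelysin, a broad matrix protease that also activates other pro-MMPs, had 15.4, 4.88 and 4.65 CPM in treated tumours and 5.38, 5.16 and 2.77 CPM in control tumours. Treated 1 stood alone, and the other treated libraries lay within the control range. The log2 fold change was 0.90 ± 0.49 (edgeR adjusted p = 0.421), and 0.10 without treated 1. Mmp12, the macrophage elastase, had 10.7, 15.0 and 7.83 CPM in treated tumours and 10.7, 16.7 and 23.9 CPM in control tumours. Its groups overlapped, with a log2 fold change of -0.62 ± 0.32 (adjusted p = 0.400, edgeR). Macrophage markers summed to 268, 150 and 72.1 CPM in treated and 222, 212 and 160 CPM in control tumours over 10 of 10 listed genes. Both Mmp12 and this sum were lowest in treated 3. Treated 1 had the highest macrophage sum, with 10.7 CPM of Mmp12. Control 3 had the lowest control sum and the highest Mmp12, at 23.9 CPM. The part of macrophages in the Mmp12 levels was not tested. None of the 6 clustered genes of chromosome 9 passed the test. Their log2 fold changes ran from -0.67 (Mmp27) to 1.11 (Mmp8), and the 4 with AP-1 letters near the start ran from -0.62 (Mmp12) to 0.90 (Mmp3).

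Mmp14, the membrane-type MMP that activates pro-MMP2 at the cell surface, had 140.4, 156.8 and 140.7 CPM in treated tumours and 144.1, 129.9 and 122.7 CPM in control tumours. The groups overlapped, with a log2 fold change of 0.14 ± 0.08 (adjusted p = 0.444, edgeR), and the 95% interval of the fold change, 0.969 to 1.26, was the narrowest of the 16 tested MMPs. Mmp15, another membrane-type enzyme, had 4.70, 3.14 and 1.79 CPM in treated tumours and 2.64, 2.53 and 2.21 CPM in control tumours, with a log2 fold change of 0.38 (adjusted p = 0.651, edgeR), which was 0.0028 without treated 1 and 0.67 without treated 3. Mmp19 had 10.5, 5.76 and 3.48 CPM in treated tumours and 7.24, 4.16 and 3.91 CPM in control tumours. Its groups overlapped, with a log2 fold change of 0.37 ± 0.41 (adjusted p = 0.732, edgeR), which was -0.14 without treated 1 and 0.67 without treated 3. Mmp23 and the epithelial enzyme Mmp28 had log2 fold changes of 0.30 (edgeR adjusted p = 0.745) and 2.22 ± 1.07 (0.359). Mmp28 rested on 0.948, 0.388 and 0.151 CPM in treated tumours and 0.185, 0.124 and 0 CPM in control tumours, and its log2 fold change was 1.35 without treated 1. The remaining tested MMPs, Mmp10, Mmp11, Mmp17, Mmp25 and Mmp27, had log2 fold changes from -0.67 to 1.70, and none passed the test.

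None of the 14 ADAMs tested in edgeR, or of those DESeq2 tested, passed. In edgeR, 1.36% of all genes rose and 0.249% fell. An unadjusted p under 0.05 (edgeR) was found for 2 ADAMs, Adam12 and Adam1a, against 16.0% of all genes. Adam10, which sheds Notch receptors, cadherins and chemokines, had 140.4, 144.0 and 139.3 CPM in treated tumours and 138.7, 147.3 and 143.9 CPM in control tumours. The 6 libraries lay within a narrow range, and the 95% interval of the fold change was 0.900 to 1.08 (log2 -0.02 ± 0.06; edgeR adjusted p = 0.904). Adam17, the sheddase of TNF and of ligands of the EGF receptor, had 110.7, 109.8 and 117.2 CPM in treated tumours and 113.2, 99.8 and 106.7 CPM in control tumours, with an interval of 0.947 to 1.18 (edgeR adjusted p = 0.640). Adam9 had 154.3, 173.2 and 203.7 CPM in treated tumours and 177.7, 187.9 and 191.7 CPM in control tumours, with a log2 fold change of -0.07 ± 0.10 (adjusted p = 0.801, edgeR). In all 3 genes the groups overlapped. Adam17, like Adam8, was outside the rule by which genes were named and was chosen after its values were seen.

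Adam12, a protease of mesenchymal and tumour cells, lies on chromosome 7 from 133883199 to 134232146. It had 97.3, 122.3 and 177.0 CPM in treated tumours, against 180.8, 180.3 and 176.2 CPM in control tumours. The control libraries were nearly equal, treated 1 and 2 lay below them and treated 3 lay at their level. On the log2 scale the SD was 0.436 over the treated and 0.020 over the control libraries. For Adam12 the log2 fold change was -0.44 ± 0.19, with an unadjusted p of 0.0488 and an edgeR adjusted p of 0.310; without treated 1 it was -0.26 with an adjusted p of 0.412, and without treated 3 it was -0.71 with an adjusted p of 0.0196. Adamts20 had the same order of libraries, with treated 1 lowest and treated 3 nearest to the control libraries, and log2 SDs of 0.524 and 0.031 in treated and control tumours. Adam8, a protease of myeloid cells, had 24.8, 11.2 and 7.92 CPM in treated tumours and 13.2, 14.5 and 13.8 CPM in control tumours, so that treated 1 was above and treated 2 and 3 were below all control libraries (log2 fold change 0.08 ± 0.37; edgeR adjusted p = 0.944). Without treated 1 it was -0.53 with an adjusted p of 0.202.

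The neural ADAMs, which lack protease activity and act in adhesion and synapses, did not pass the test. Adam23 had 22.3, 24.1 and 43.0 CPM in treated tumours and 30.8, 25.7 and 22.2 CPM in control tumours. Treated 3 was the highest of the 6 libraries and the other treated libraries lay at the low end of the control range (log2 fold change 0.19 ± 0.25; edgeR adjusted p = 0.780), and without treated 3 the log2 fold change was -0.17. Adam11 and Adam22 had log2 fold changes of 0.01 ± 0.44 and 0.53 ± 0.58 with overlapping groups, and without treated 3 they were -0.41 and 0.15. Adam1a, known in mouse as a sperm maturation gene, lies on chromosome 5 from 121518576 to 121545482. It had 54, 21 and 651 counts in treated tumours and 35, 40 and 32 counts in control tumours, so that 1 library, treated 3, held most of its counts. Its log2 fold change was 2.66 ± 1.11 (unadjusted p = 0.0428; edgeR adjusted p = 0.295), and it was 0.004 without treated 3. Its exon bases are shared to 63.7% with Gm42878 on the same strand, which had 0.887, 1.57 and 0 CPM in treated and 3.17, 0.761 and 1.00 CPM in control tumours. Of its 7508 exon bases, 1805 are shared with Mapkapk5, also on the same strand, which had 43.2, 40.8 and 31.9 CPM in treated and 35.2, 39.0 and 42.3 CPM in control tumours and was thus lowest in treated 3. The assignment of these reads is uncertain. Adam4 had 12 to 33 counts in treated and 11 to 18 in control tumours (log2 fold change 0.47 ± 0.60, or -0.0082 without treated 1). The remaining tested ADAMs, Adam15, Adam19, Adam33 and Adam1b, had log2 fold changes from -0.35 to -0.005. Besides Timp4, the genes Adam5, Adam21, Adam32, Adamts8 and Mmp24 had too few counts to be tested, with sums of 23 to 40 over the 6 libraries.

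Treated 1 was the library with the highest CPM for 16 of the 47 tested genes (34.0%), against 22.1% of all genes tested. The 16 included Mmp2, Mmp3, Mmp8, Mmp9, Mmp13, Mmp15, Mmp19, Mmp25, Mmp28, Adam8 and Timp1. Neutrophil markers, of which 8 of 10 listed genes were in the table, summed to 50.6, 15.2 and 4.22 CPM in treated tumours, against 2.15, 1.63 and 4.07 CPM in control tumours. Skeletal muscle markers (6 of 6 genes) summed to 133, 23.98 and 2.57 CPM in treated and 64.2, 52.4 and 26.6 CPM in control tumours. Among keratinocyte markers (6 of 6 genes), Krt14 had 41.9 CPM in treated 1 and at most 0.0618 CPM in each other library. T cell markers (7 of 7 genes) summed to 5.92, 3.77 and 1.79 CPM in treated and 7.04, 6.29 and 7.49 CPM in control tumours, and adipocyte markers (4 of 4 genes) to 4.50, 1.34 and 0.0602 CPM in treated and 2.72, 1.40 and 1.67 CPM in control tumours. Neutrophil and keratinocyte markers were thus highest in the same library as these proteases, which were listed for being highest there. The sums of macrophage, fibroblast, endothelial, pericyte and smooth muscle, skeletal muscle and adipocyte markers were also highest in treated 1. T cell sums were highest in control 3 and melanocyte sums in treated 3. The part of any cell type in the protease levels was not tested. Over the genes tested, the log2 SD was larger among treated than among control libraries for 29 of 47 genes (61.7%), against 58.9% of all genes.

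**Figure D4:**
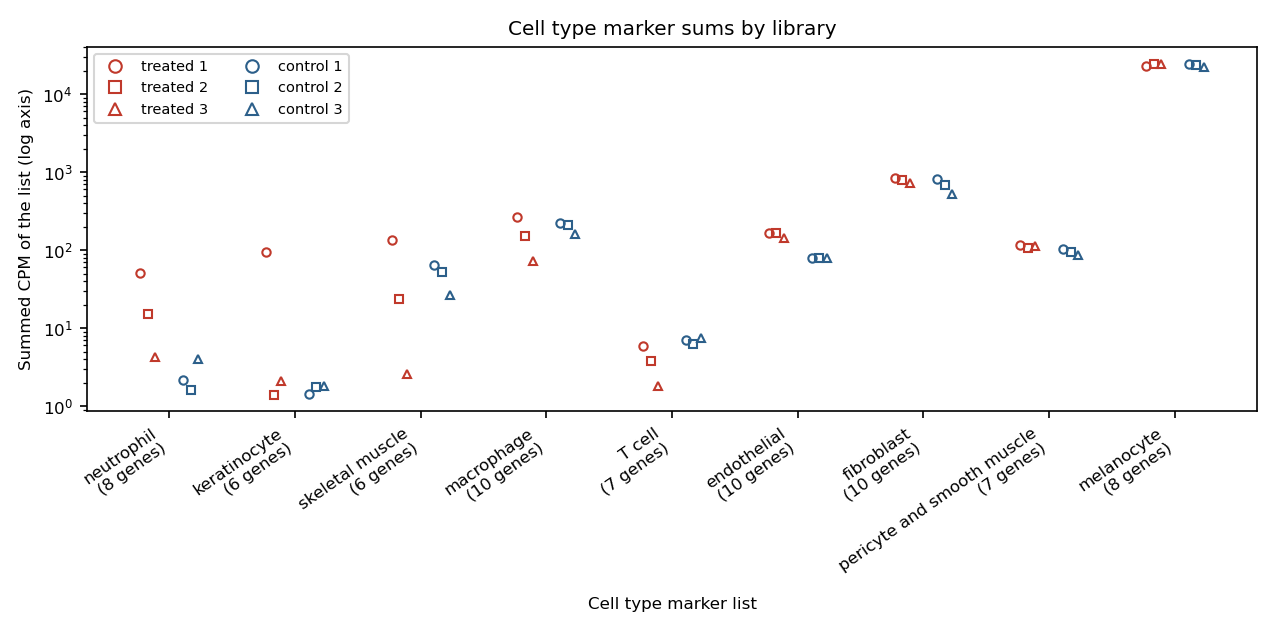
Summed CPM (log axis) of 9 lists of cell type markers in each library, with red symbols for treated and blue symbols for control tumours and the number of genes found in the table beside each list's name. Treated 1 is high for neutrophil, keratinocyte and skeletal muscle markers, and endothelial sums are 145 to 168 CPM in the 3 treated tumours against 78.4 to 79.9 CPM in the control tumours.

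The endothelial marker sum was higher in every treated library than in every control library. It was 168, 166 and 145 CPM in treated tumours, against 79.0, 78.4 and 79.9 CPM in control tumours over 10 of 10 listed genes. Of these 10 genes, 6 rose and 0 fell at an adjusted p under 0.05 in edgeR, against 1.36% and 0.249% of all genes. Pecam1, an adhesion molecule of endothelial cells, had 42.1, 43.1 and 37.6 CPM in treated tumours and 17.1, 16.5 and 16.3 CPM in control tumours. The groups overlapped for Tek, Kdr and Cldn5, with log2 fold changes of 0.0044, 0.28 and 0.95. All treated libraries lay above all control libraries in endothelial marker sums, Adamts4 and Timp3, an order found for 12.0% of all genes tested. Among treated libraries, Adamts4 and the endothelial sum were both lowest in treated 3. Timp3 was lowest in treated 1 (68.0 CPM), which had the highest endothelial sum. The part of endothelial RNA in the levels of these genes was not tested. Fibroblast marker sums overlapped, at 832, 786 and 716 CPM in treated and 813, 684 and 525 CPM in control tumours. Sums of pericyte and smooth muscle markers were 115, 107 and 114 CPM in treated and 103, 93.3 and 86.3 CPM in control tumours, with every treated library above every control library.

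The genes that activate, anchor or accompany these proteases were read from the same fit. Of all genes tested in edgeR, 1.36% rose, 0.249% fell and 16.0% had an unadjusted p under 0.05. DESeq2 called 4.47% higher and 1.89% lower of all genes it tested. Of 10 tested activators and convertases, 0 rose and 0 fell in edgeR, and 3 had an unadjusted p under 0.05. DESeq2, which tested 9, called 2 higher, Pcsk7 and Plaur. The smallest adjusted p were those of Pcsk7, a proprotein convertase of the furin family (log2 fold change 0.37 ± 0.07, edgeR adjusted p = 0.0560), and Plaur, the urokinase receptor (0.56 ± 0.17, 0.175). Pcsk7 had 37.9, 40.6 and 37.3 CPM in treated tumours and 30.9, 29.9 and 29.0 CPM in control tumours, with no overlap. Of 9 tested genes for other inhibitors and clearance, 0 passed in edgeR. Bsg, the MMP inducer basigin, had a log2 fold change of -0.07 (adjusted p = 0.581, edgeR). Of 9 tested partners of Adam10 and Adam17, 0 passed in edgeR, 2 had an unadjusted p under 0.05 and DESeq2 called 1 higher, Rhbdf2. Rhbdf2, which carries Adam17 to the cell surface, had 19.3, 15.8 and 14.5 CPM in treated tumours and 11.01, 9.83 and 12.1 CPM in control tumours (log2 fold change 0.59 ± 0.15; edgeR adjusted p = 0.107). Its groups did not overlap, and Rhbdf1, which has the same role, had a log2 fold change of 0.17 (0.282). Of 8 tested ADAMTS-like and other metalloproteases, 0 passed in edgeR and 3 had an unadjusted p under 0.05. DESeq2, which tested 6, called 1 higher, Adamtsl4. This ADAMTS-like matrix protein without protease activity was at a log2 fold change of 0.50 ± 0.11 (adjusted p = 0.0844, edgeR) and Thsd4, a fibrillin-binding protein, at 1.59 ± 0.61 (0.257).

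Among 18 tested surface proteins shed by Adam10 or Adam17, 1 rose and 0 fell at an adjusted p under 0.05 (edgeR), against 1.36% and 0.249% of all genes. Without adjustment, 5 had p under 0.05 (edgeR), against 16.0% of all genes. DESeq2, which tested 17, called 4 higher and 0 lower, against 4.47% and 1.89% of all genes it tested. Cdh5, the cadherin of endothelial junctions, had 35.7, 39.4 and 33.1 CPM in treated tumours and 15.5, 15.7 and 19.0 CPM in control tumours. The groups did not overlap, and the gene rose 2.16-fold (log2 1.11 ± 0.12; edgeR adjusted p = 0.00295); it is also in the endothelial list. The next smallest adjusted p belonged to Tnfrsf1a, the TNF receptor, with a log2 fold change of 0.31 ± 0.07 (0.105). The median log2 fold change of the 18 genes was 0.31, against -0.003 for all genes tested. Taken library by library against the control mean, their median was 0.88, 0.64 and -0.054 in treated 1, 2 and 3. The lean was thus absent from treated 3. Of 8 tested ADAMTS substrates, 0 passed in edgeR or in DESeq2, which tested 7. In edgeR, 2 had an unadjusted p under 0.05, Vwf at -0.49 (edgeR adjusted p = 0.284) and Col1a1 at 0.39 (0.293).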

How the data were processed

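Raw counts and FPKM for 28368 genes were deposited by the authors in a single table, per the file headers. The libraries were made from poly(A) RNA by a method that marks strand and read as pairs of 150 bases, per the labels' protocols. Tools named in the submitters' processing notes are edgeR, StringTie and fastp. No aligner, build, annotation or strand setting of the counting is given in the sources used here. GENCODE M21 (GRCm38) holds 99.7% of the identifiers, 90.0% with the same span (47 of the 53 genes described). The FPKM columns that the authors deposited were used for levels between genes only. Relative to treated 1, their ratio to the counts was constant for 98.3 to 98.7% of 13090 genes (tolerance 1%). In the header, the FPKM column of control 2 carries an extra suffix.

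Counts were tested with edgeR 4.0.16 (glmQLFit, glmQLFTest, group term, 6 libraries, two-sided) in R 4.3.3, after filterByExpr (minimum count 10, minimum total 15), which kept 18049 genes and removed 10319, and TMM scaling. The common biological coefficient of variation was 0.252. P-values were adjusted by Benjamini-Hochberg, with a threshold of 0.05. Levels are TMM-scaled CPM with the SD over 3 libraries. The script was tested on simulated data. The libraries differ by more than counting noise (chi-square per gene of 17.2 or more between any pair). Alternatives used DESeq2 1.42.0, limma 3.58.1, other scalings, other filters, a replicate block and leaving out each library.

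The genes, the lists and the tests were chosen with earlier results of these data known. Genes were named by this rule: those with an unadjusted p under 0.05, in each role class the 2 with the highest FPKM and the 1 with the smallest p, and all TIMPs; of each related list, called genes and the 2 with the smallest p. Promoters came from RefSeq tables on GRCm38.p6. Some results of the named genes are not reported here.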

Additional observations from a re-analysis of the deposited data

How the results depend on the processing

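The count of the described genes called higher was 1 and of those called lower 0. The first was 3 with DESeq2 (Adamts4, Adamts7 and Timp3, of 40 tested), 2 with limma-voom and sample quality weights (Adamts4 and Timp3), 0 with the replicate block, and 0 to 2 without 1 library each; the second was 0 to 1 without 1 library each. Over all genes, 246 were higher and 45 lower. DESeq2 gave 701 and 297, the quality weights 601 and 191, the replicate block 123 and 14, no filter 10 lower, and leaving out 1 library each gave 94 to 308 higher and 3 to 39 lower. Same-numbered deviations from the group means correlated at 0.0855, -0.164 and -0.107, and the largest correlation was 0.239, between treated 3 and control 2. Centring on the group means makes these correlations offset one another, so they cannot settle whether library numbers pair the samples. Small log2 fold changes changed sign. Timp2 was 0.030 with quality weights, and Adam11 was -0.0032 with library size only and -0.011 with limma-voom. Without 1 library each, ranges of genes named by rule crossed 0 for Timp2 (-0.13 to 0.12) and Mmp9 (-0.078 to 1.21). The same held for Mmp19 (-0.14 to 0.71), Adam4 (-0.0082 to 0.76), Adam9 (-0.18 to 0.022) and Adam11 (-0.41 to 0.40). It also held for Adam23 (-0.17 to 0.36), Adamts1 (-0.037 to 0.40) and Adamts12 (-0.27 to 0.10). Outside the rule, Adam8 ran from -0.53 to 0.38. Ranges also crossed 0 for Adam15, Adam19, Adam1b, Adamts5, Adamts6, Adamts13, Adamts15, Adamts17, Mmp10, Mmp11, Mmp17 and Mmp27. On all 6 libraries, Adam8 was -0.089 with limma-voom, -0.29 with quality weights and -0.090 with the replicate block. The causes were not tested. The log2 fold change of Adamts4 lay between 0.51 and 0.62 without 1 library each. Other scalings moved the median of all genes by at most 0.0137. Low counts limit Mmp25, Mmp28, Adam4 and the untested genes.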
